A study of Mus musculus with 16 samples.

Results

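The comparison described here is between PPARβ/δ knockout and wild-type mouse skin after chronic UVB. It takes 8 of the 16 arrays of the series, namely the 4 arrays titled as WT skin at 12 weeks (WT UV) and the 4 titled as KO skin at 12 weeks (KO UV). The miRNAs followed were those that the scanner software detected on 4 of 4 arrays of either group. They numbered 187 of the 567 mouse miRNAs on the array. Of these, 170 were detected on all 8 arrays, 13 on every WT UV array but not on every KO UV array, and 4 on every KO UV array but not on every WT UV array.

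All 8 arrays held RNA of lesion-free dorsal skin from female mice with the hairless albino SKH-1 trait on a mixed SKH1-C57/Bl6-SV129 background. The methods give their age as 8 to 12 weeks without saying at which point, and both groups received UVB at 70 mJ/cm2, 3 times a week, for 12 weeks. WT animals were Ppard+/+ and KO animals Ppard-/-, littermates that lacked the receptor in every cell type and not in keratinocytes alone. Each array held 1 sample, and the labels give each sample an animal of its own. The other 8 arrays held skin of the same genotypes without irradiation and entered the model so that all groups shared an estimate of the spread. Since the arrays read miRNAs and not the Ppard transcript, the data offer no check of the genotype labels.

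PPARβ/δ is a lipid-activated nuclear receptor that binds DNA together with RXR and, in skin, takes part in keratinocyte differentiation, survival and repair. A miRNA is a short RNA that guides the silencing complex to messenger RNAs, mostly by pairing through its seed, the bases from position 2 to position 8. MiRNAs of the same seed have largely shared predicted targets, and miRNAs made from the same precursor transcript often vary together in level. In skin, miR-203 and miR-205 mark the epidermis, miR-143 and miR-145 smooth muscle and fibroblasts, and miR-142 and miR-223 leukocytes.

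The sequences below are those that the results turn on, with the seed in capitals, written 5′ to 3′ as RefSeq gives the mature strand (GRCm38.p6). The first 5 belong to the imprinted Dlk1-Dio3 cluster and each has a seed of its own. The next pair share the miR-34 seed, as does miR-34c. The last 6 share the seed of the miR-15 family, of which miR-322 is the member made from chromosome X.
miR-127-3p: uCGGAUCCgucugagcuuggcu
miR-136-5p: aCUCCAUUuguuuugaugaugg
miR-379-5p: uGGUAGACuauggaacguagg
miR-411-5p: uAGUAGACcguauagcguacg
miR-300-3p: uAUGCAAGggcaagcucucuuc
miR-34a-5p: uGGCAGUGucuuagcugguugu
miR-34b-5p: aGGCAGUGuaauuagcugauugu
miR-322-5p: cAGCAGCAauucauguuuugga
miR-15a-5p: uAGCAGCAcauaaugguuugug
miR-15b-5p: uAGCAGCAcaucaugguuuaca
miR-16-5p: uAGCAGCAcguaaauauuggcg
miR-195a-5p: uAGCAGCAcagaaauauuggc
miR-497a-5p: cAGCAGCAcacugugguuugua

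The 8 arrays lay on the same slide, WT UV in its first row and KO UV in its second, and the effect of the slide row cannot be told apart from that of genotype within them. The software detected 184 to 194 miRNAs on the KO UV arrays, fewer than on any WT UV array (mean difference -10.5, exact two-sided permutation p = 0.0286, the smallest that 4 against 4 arrays can give, and 0.0762 after adjustment over 4 array measures). The summed signal ran from 223198 to 313107 units in WT UV and from 200905 to 231139 in KO UV, and the median local background averaged 123.1 and 128.3 units. KO UV replicate 4 stood furthest from the other arrays of its group, with a median absolute log2 deviation of 0.23 over the 187 miRNAs against 0.12 to 0.16 for the other KO UV arrays. The part of these array measures in the genotype differences was not tested.

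After chronic UVB, 5 miRNAs were lower in KO UV than in WT UV and none was higher. These were miR-127, miR-379 and miR-136 of the imprinted cluster, miR-34c and miR-322. They were called at an adjusted p under 0.05 in a limma fit with Benjamini-Hochberg adjustment over the 228 miRNAs tested in the series, which is 2.19% of those tested for lower and 0% for higher. All 5 were among the 187. MiR-379 and miR-136 entered the 228 only because every WT UV array detected them, the group in which they were higher. Their p-values therefore follow a choice made on the same arrays. At an unadjusted p under 0.05 there were 20 of the 187, 10 lower and 10 higher. The median difference over the 187 was 0.01 on the log2 scale, with quartiles of -0.11 and 0.14, and 88 lay below 0 and 99 above. This split depended on the scaling: with the invariant set 125 lay below 0 and 61 above, and without normalization 179 and 8. Only 7 of the 187 differed by more than 0.5 in either direction. For a typical miRNA the 95% interval of the difference reached 0.31 to either side, so smaller differences were not resolved with 4 arrays a group. With slide row as a covariate, whose effect only the non-irradiated slide can estimate, miR-127, miR-379, miR-34c and miR-322 were not called (adjusted p from 0.225 to 0.424). MiR-136 was at the floor on every non-irradiated array, so that setting could not move its difference.

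**Figure D1:**
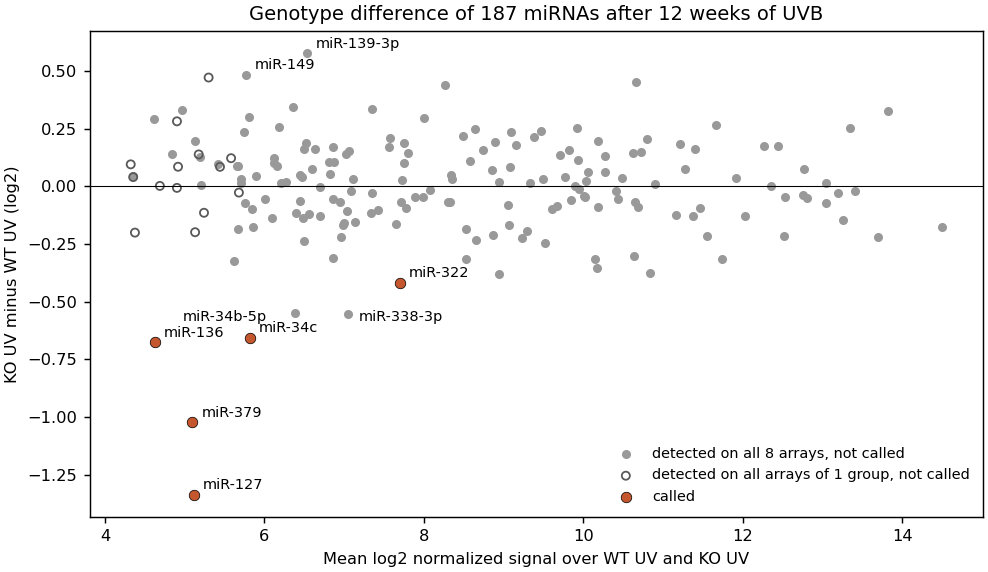
Difference KO UV minus WT UV (log2, vertical) against the mean log2 normalized signal of both groups (horizontal) for each of the 187 miRNAs. The called miRNAs (orange) lie below 0, from -1.34 for miR-127 to -0.42 for miR-322, and all but 7 of the 187 lie within 0.5 of 0.

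Groups that did not overlap at all on the floored log2 scale were found for 14 of the 187, 11 lower in KO UV and 3 higher. Over the 228 tested the shares were 4.82% and 1.32%. The 11 comprised the 5 called miRNAs and miR-338-3p, miR-34b-5p, miR-199b*, miR-199a-5p, miR-133a and miR-10a, and the 3 were miR-139-3p, miR-188-5p and miR-99b. Several of these fall outside the rule for naming miRNAs and were named after their values were seen.

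The imprinted Dlk1-Dio3 cluster of chromosome 12, a long run of miRNA genes expressed from the maternal allele, supplied 3 of the 5 called miRNAs. MiR-127 and miR-136 lie inside the span of Rtl1, a retrotransposon-derived gene needed in the placenta, and are made from its antisense transcript. The normalized signal of miR-127 (mm9 chromosome 12, 110831102 to 110831119, plus strand) was 52.8, 50.4, 66.2 and 52.0 units on the 4 WT UV arrays and 17.9, 25.7, 20.8 and 21.8 units on the 4 KO UV arrays. Every WT UV array detected it and 1 KO UV array did. Its difference was -1.34 ± 0.23 (SE) on the floored log2 scale (limma adjusted p = 0.00446). The fitted fold of 2.53 is against a group in which 3 of 4 arrays did not detect it and in which the software's error averaged 7.91 units.

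MiR-379, from the downstream run of the same cluster that also holds miR-411 and miR-300, gave 53.9, 45.5, 53.9 and 43.0 units in WT UV and 22.8, 23.1, 21.8 and 28.96 units in KO UV (mm9 chromosome 12, 110947280 to 110947295). The groups stood apart, and no KO UV array detected it. Its own signal on the KO UV arrays was at or above the lowest signal that each called detected, so the bound of at least 2.03-fold lower equals the fitted fold (difference -1.02 ± 0.15, limma adjusted p = 0.00155). MiR-136 gave 36.4, 30.9, 32.4 and 25.7 units in WT UV and 15.2, 17.5, 10.4 and 19.9 units in KO UV (mm9 chromosome 12, 110833541 to 110833562), again with no KO UV array detecting it. Against the higher of its own signal and the lowest detected signal of each KO UV array, it was at least 2.01-fold lower (fitted difference -0.68 ± 0.07, limma adjusted p = 0.000108). The small error of miR-136 comes with the floor of 19.4 units used in the test, at which 3 of 4 KO UV arrays and all non-irradiated arrays were set. With a floor of 1 unit its difference was -1.02 at an adjusted p of 0.374, and that of miR-379 -1.02 at 0.0664, while miR-127 stayed called. With normexp background correction and an offset of 50 units, the differences of the 5 shrank to between -0.18 and -0.08, and miR-136 (adjusted p = 0.104) and miR-379 (0.318) were not called. MiR-136 was also not called in the series table that the authors normalized (0.105).

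**Figure D2:**
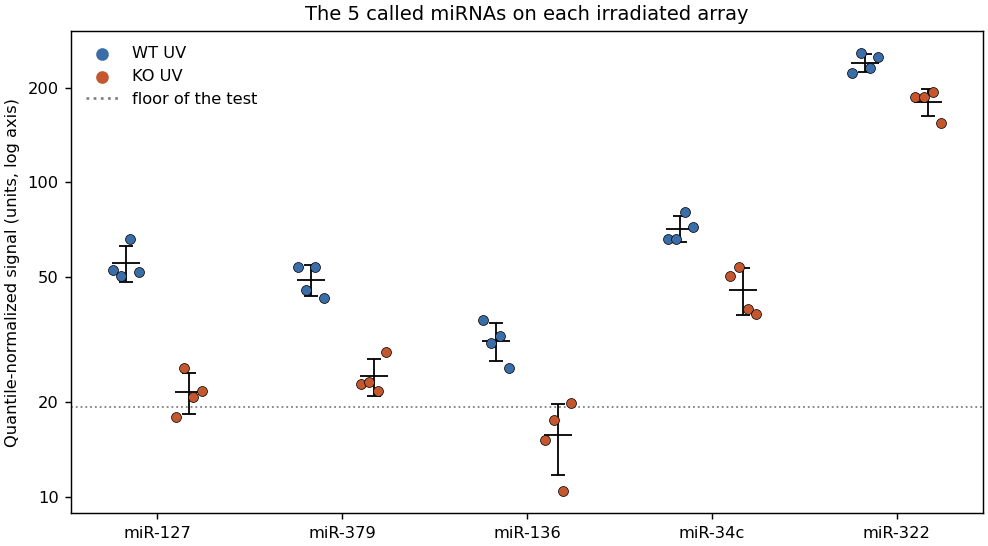
Normalized signal (units, log axis) of the 5 called miRNAs on each irradiated array, WT UV in blue and KO UV in orange, with the group mean and SD as bars and the floor of the test dotted. For each miRNA every KO UV array lies below every WT UV array, and the KO UV values of miR-127, miR-379 and miR-136 sit near the floor of 19.4 units.

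The probes of the called miRNAs were also read one by one. This is a description, since the signal tested for each miRNA was the sum of its probes. The probe signals are from before normalization, where 179 of the 187 miRNAs had differences below 0. How many of all probes on the array separated the groups was not counted. Each called miRNA was read by a pair of probes of 10 spots each, and 9 of these 10 probes had all KO UV arrays below all WT UV arrays in signal before normalization. The exception was the first probe of miR-136, where the lowest WT UV array read 6.41 units and the highest KO UV array 6.54. The second probe of miR-127 averaged 47.5 ± 3.19 units (SD, n = 4) in WT UV and 16.3 ± 3.45 in KO UV, and that of miR-379 35.2 ± 3.41 and 13.7 ± 2.78.

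The array carried 73 miRNAs of the cluster, and most of them were too dim for the software to detect in skin. Of the 73, 10 were detected on at least 1 WT UV array and 4 on at least 1 KO UV array. Detection calls summed over the 4 arrays came to 31 in WT UV and 12 in KO UV, with 8 miRNAs detected on more WT UV than KO UV arrays and none the other way. In normalized signal without a floor, 15 of the 73 had every KO UV array below every WT UV array and 1 had the reverse. Over all 577 miRNAs on the array, these shares were 4.68% and 1.56%. The cluster itself supplied 15 of the 27 such miRNAs on the whole array, and outside it 12 of 504 did so (2.38%).

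No KO UV array detected any of these 15 except miR-127, and 11 of the 15 were not tested. No WT UV array detected miR-337-3p, miR-434-5p, miR-434-3p, miR-411*, miR-329, miR-667, miR-376a, miR-377 or miR-410 either. MiR-667 averaged below 0 units in both groups (-3.77 in WT UV and -6.04 in KO UV). MiR-300 gave 23.7, 21.2, 25.2 and 19.4 units in WT UV and 10.1, 8.34, 8.09 and 9.196 units in KO UV, at least 1.60-fold lower by the same bound, but it was not called (limma adjusted p = 0.193). In that fit 4 KO UV arrays and 1 WT UV array were set to the floor. MiR-300 was called in 4 of 16 alternatives. These were no normalization, no filter, the authors' series table (limma adjusted p = 0.000267) and a floor of 1 unit (5.4e-05). MiR-411 gave 16.0 to 29.6 units in WT UV and 4.17 to 11.9 in KO UV. MiR-154 gave 20.3 to 27.1 and 10.3 to 15.2 units. MiR-329 gave 12.6 to 15.6 and 1.74 to 3.01 units, and no irradiated array detected it. The error that the software assigned to these 4 miRNAs averaged 7.74 to 8.17 units per group.

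The other detected members of the cluster were not called, and their groups overlapped. MiR-494 gave 1284 to 2200 units in WT UV and 1357 to 3393 in KO UV, and its difference was 0.21 with a 95% interval from -0.89 to 1.304. MiR-487b gave 38.3 to 70.9 and 35.6 to 68.3 units. MiR-370 was detected on 4 WT UV and 3 KO UV arrays, at 33.9 to 43.0 and 27.7 to 41.9 units. Of the 7 cluster miRNAs among the 187, 5 entered through detection in WT UV alone, a choice that favours differences below 0. The cluster's median in the plot of differences by list carries this choice and is not read as a result.

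**Figure D3:**
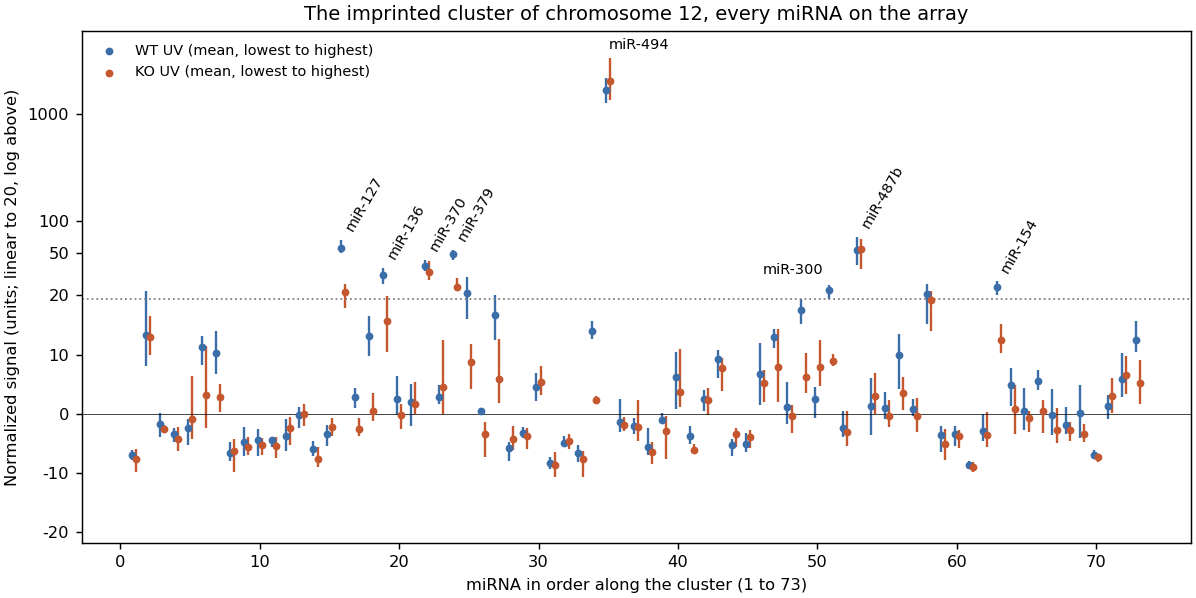
Normalized signal of all 73 cluster miRNAs on the array in their order along chromosome 12 (vertical axis linear up to 20 units and log above), with a point for the group mean and a line from the lowest to the highest of 4 arrays. WT UV (blue) lies above KO UV (orange) without overlap for 15 miRNAs, most of them detected on no irradiated array, whereas miR-494, miR-487b and miR-370 overlap.

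Without irradiation the same cluster miRNAs showed no such gap. MiR-127 averaged 35.01 ± 9.23 units (SD, n = 4) in WT no UV and 38.3 ± 12.4 in KO no UV, miR-379 20.001 ± 6.03 and 18.4 ± 7.88, and miR-136 11.3 ± 4.44 and 11.9 ± 4.598. The genotype difference after UVB minus that without was -1.45 ± 0.32 for miR-127 (limma adjusted p = 0.0345), -0.99 ± 0.21 for miR-379 (0.0345) and -0.68 ± 0.10 for miR-136 (0.00441). MiR-379 and miR-136 entered the 228 only through detection on every WT UV array, so these p-values too follow a choice made on the same arrays. Of 228 such differences, 4 were below 0 at an adjusted p under 0.05 (1.75%) and 1 was above (0.439%). The 1 above was that of the viral mghv-miR-M1-2 (0.66, limma adjusted p = 0.0474), named after its value was seen. The 228 included 3 viral miRNAs. The calls for miR-127 and miR-379 were lost with most single arrays left out, at adjusted p of up to 0.0933, and all 3 were lost with scaling to the 75th percentile of detected miRNAs, the invariant set or normexp, and with the replicate number as a block or slide row as a covariate. MiR-136 lay under the floor on all non-irradiated arrays. The irradiated and non-irradiated arrays lay on different slides, so irradiation and slide cannot be told apart in these differences.

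MiR-34c and miR-34b-5p are made from the same transcript on chromosome 9, and the miR-34 family is a known target of the tumour suppressor p53, which UVB activates. MiR-34c (mm9 chromosome 9, 50911181 to 50911200, minus strand) gave 66.2, 66.2, 80.5 and 72.0 units in WT UV and 50.4, 53.9, 39.6 and 38.3 units in KO UV. All 8 arrays detected it and the groups did not overlap. The difference was -0.66 ± 0.12, or 1.58-fold lower in KO UV (limma adjusted p = 0.00500). It was not called when only the 8 irradiated arrays were fitted (adjusted p = 0.0650), nor in the series table that the authors normalized (0.198), nor with a floor of 1 unit (0.517). Its log2 SD was 0.13 in WT UV, 0.25 in KO UV, 0.19 in WT no UV and 0 in KO no UV. The 0 was set by the floor, and all groups entered the shared estimate of the spread.

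MiR-34b-5p gave 109.9, 92.2, 105.8 and 95.6 units in WT UV and 78.1, 72.9, 64.9 and 60.2 units in KO UV. Again no KO UV array reached a WT UV array. Its difference of -0.55, with a 95% interval from -0.94 to -0.16, did not pass the adjustment in the fit of all 16 arrays (adjusted p = 0.236) but did when only the 8 irradiated arrays were fitted (0.0445). MiR-34a, made from another transcript on chromosome 4, had 1316 to 1516 units in WT UV and 1126 to 1611 in KO UV. Its difference was -0.05, with an interval from -0.37 to 0.26. Without irradiation the differences of the 3 were -0.10 for miR-34c, -0.21 for miR-34b-5p and -0.38 for miR-34a, none of them called, and miR-34c was at the floor on 3 of 4 WT and 4 of 4 KO arrays.

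MiR-322, the mouse counterpart of human miR-424, is a member of the miR-15 family, which acts on cyclins and other cell cycle regulators. Its gene lies on chromosome X beside that of miR-503 and 5 other miRNA genes. MiR-322 (mm9 chromosome X, 50407483 to 50407504, minus strand) gave 223.4, 257.9, 231.0 and 250.0 units in WT UV and 187.1, 187.1, 193.3 and 154.1 units in KO UV. The groups did not overlap, and the lowest value was that of KO UV replicate 4. The difference was -0.42 ± 0.09, or 1.34-fold lower in KO UV (limma adjusted p = 0.0136). This was the least stable of the 5 calls. It was lost in 11 of 17 alternatives, with adjusted p from 0.0532 to 0.465 in those, and without WT UV replicate 2 (adjusted p = 0.0617), although its difference stayed between -0.68 and -0.18.

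The other members of the miR-15 family share the 7 seed bases of miR-322 and 11 to 16 of its bases over the aligned length, and none was called. Their differences were -0.13 for miR-15a, 0.15 for miR-15b, 0.04 for miR-16, -0.09 for miR-195 and -0.09 for miR-497. The widest of their 95% intervals, that of miR-15b, ran from -0.10 to 0.40. Of the 19 family and chromosome X cluster miRNAs on the array, 6 were among the 187, and miR-503 and the other neighbours of miR-322 were not.

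**Figure D4:**
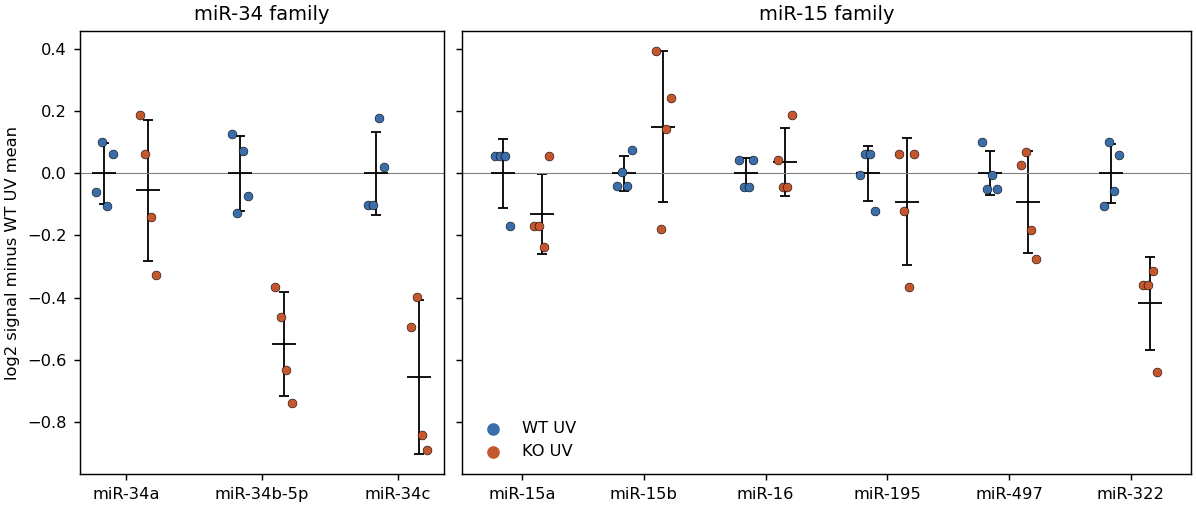
Log2 signal on each irradiated array minus the WT UV mean of the same miRNA, for the miR-34 family (left) and the miR-15 family (right), with group mean and SD as bars. In KO UV (orange) miR-34c, miR-34b-5p and miR-322 lie below all WT UV arrays (blue), and the other 6 family members overlap them.

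Detection was used to choose the miRNAs, so its pattern is a description. Of the 13 that were detected on every WT UV but not on every KO UV array, 5 belong to the imprinted cluster, namely miR-127, miR-136, miR-379, miR-300 and miR-370. The remaining 8 had differences from -0.11 for miR-466c-5p to 0.12 for miR-106a, none of them called, and 7 of these 8 were missed on a single KO UV array. The 4 detected on every KO UV array but not on every WT UV array were miR-674, miR-678, miR-186 and miR-697, with differences of 0.10, 0.14, 0.28 and 0.47, none of them called.

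Among the 170 miRNAs detected on all 8 arrays, the largest difference below 0 outside the calls was that of miR-338-3p, made from an intron of Aatk. It gave 142.4 to 174.5 units in WT UV and 88.9 to 132.9 in KO UV, a difference of -0.55 with an interval from -1.10 to -0.01 (limma adjusted p = 0.540). Also among the 8 lowest were miR-143 at -0.38, miR-29b at -0.37, miR-142-3p at -0.35 and miR-145 at -0.32. For these 4 the highest KO UV value was that of replicate 4. MiR-143, for example, gave 530.2 to 596.9 units in WT UV, and 347.9, 375.2, 394.8 and 672.4 units in KO UV. Without KO UV replicate 4 the 4 differences were -0.59, -0.56, -0.55 and -0.51, and none was called (adjusted p from 0.105 to 0.414). MiR-101a, named after its values were seen, was -0.31 with all arrays (adjusted p = 0.561) and -0.50 without that array (0.0131).

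No miRNA was called higher in KO UV, and the 8 largest positive differences ran from 0.33 to 0.58. MiR-139-3p, made from an intron of Pde2a, gave 70.9, 97.3, 52.0 and 92.2 units in WT UV and 128.8, 105.8, 103.0 and 116.4 units in KO UV. Its groups did not overlap, and the difference was 0.58 with an interval from 0.07 to 1.08 (limma adjusted p = 0.435). MiR-149, made from an intron of the glypican gene Gpc1, gave 32.4 to 68.3 and 57.9 to 72.0 units, a difference of 0.48 (adjusted p = 0.349). Its highest WT UV value was that of replicate 4, and without that array the difference was 0.67 (adjusted p = 0.0202). MiR-1224, miR-721, miR-182, miR-188-5p, miR-466f-3p and miR-203 followed, at 0.45, 0.44, 0.34, 0.34, 0.33 and 0.33, with adjusted p from 0.540 to 0.913.

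Of the epidermal miRNAs 9 were measured, 2 with differences below 0 and 7 above, and none was called. Their median was 0.06, from -0.06 for miR-141 to 0.33 for miR-203. MiR-205, an epithelial miRNA at high level, gave 8230 to 10478 units in WT UV and 10478 to 12236 in KO UV (difference 0.25, interval from 0.05 to 0.45, adjusted p = 0.335). The summed signal of the 9 ran from 26298 to 31997 units in WT UV and from 29536 to 43303 in KO UV, and its highest value was that of KO UV replicate 4.

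The smooth muscle and fibroblast list lay on the other side. All 6 of its measured members had differences below 0, from -0.38 for miR-143 to -0.07 for miR-214, with a median of -0.31 beside 0.01 for all 187. None was called. Their summed signal was 6521 to 6877 units in WT UV and 5241 to 6056 in KO UV, without overlap. MiR-199b, whose own groups overlapped, weighed most in it, with 3704.5 of 6536 units on WT UV replicate 1. The 6 are not independent readings. MiR-143 and miR-145 lie close together on chromosome 18, and the probes of miR-199b and miR-199a-5p on chromosome 1. All 6 were below 0 under each other scaling and signal tried, and without KO UV replicate 4 there were 5 of 6, with a median of -0.29. In bulk skin, fewer cells of a type and less of a miRNA per cell cannot be told apart.

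The remaining lists held no call beyond those described. Leukocyte miRNAs had a median of -0.14 over 8 measured, from -0.35 for miR-142-3p to 0.26 for miR-150, and their summed signal was 4819 to 5563 units in WT UV and 4289 to 4907 in KO UV. Skeletal muscle miRNAs had a median of -0.22 over 5 measured, from -0.22 for miR-1 to 0.23 for miR-206. The erythrocyte pair miR-451 and miR-486 were at -0.02 and 0.02, and the endothelial pair miR-126-3p and miR-126-5p at -0.12 and 0.05. The miR-29 family, which acts on collagen mRNAs, had a median of -0.04 over 3, from miR-29b to miR-29c at 0.06. The let-7 family had a median of -0.02 over 8, from -0.13 for let-7i to 0.25 for let-7e. The growth-linked miR-17-92 and miR-106b-25 clusters had a median of 0.03 over 10, from -0.11 for miR-19a to 0.25 for miR-93. In the UVB, p53 and keratinocyte stress list, 1 of 12 was called, miR-34c, and the median was 0.13, up to 0.34 for miR-182. Without normalization the medians of all 12 lists lay below 0, from -0.56 for smooth muscle and fibroblasts to -0.18 for the stress list, beside -0.28 for the 187. They include the median of the imprinted cluster, most of whose members among the 187 entered through WT UV alone.

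**Figure D5:**
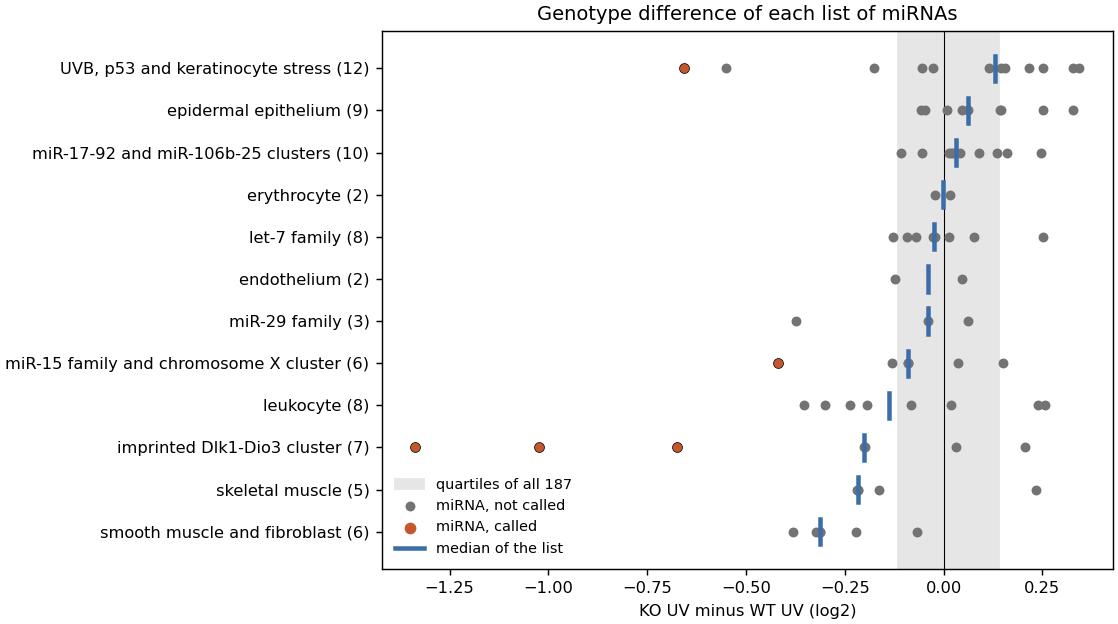
Difference KO UV minus WT UV (log2) of each measured miRNA by list, with the number of miRNAs in brackets, the list's median as a blue bar and the quartiles of all 187 as a grey band. The called miRNAs (orange) fall in the imprinted cluster, the miR-15 family and the stress list, and all 6 smooth muscle and fibroblast miRNAs lie below 0; 5 of the 7 cluster miRNAs entered through WT UV alone.

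The study follows miR-21, a miRNA raised in many tumours. MiR-21-5p ranked first in signal on 7 of the 8 arrays, so quantile normalization gave it the same value there. On that scale its difference of -0.18 came from KO UV replicate 4 alone (0 without it, limma adjusted p = 0.913 with it). Over 17 alternatives, other scalings among them, the difference ran from -0.59 to -0.18, and it was called in 0 of them. Before normalization it read 27475 to 30053 units in WT UV and 15018 to 22707 in KO UV, beside the summed signals given above; their part in this was not tested. MiR-21-3p averaged 9.04 ± 1.59 units (SD, n = 4) in WT UV and 1.79 ± 2.13 in KO UV, without overlap (exact two-sided permutation p = 0.0286, the smallest possible). Both values lie under the floor of 19.4 units, and 1 WT UV array and no KO UV array detected it. The software's error for miR-21-3p averaged 5.64 units in WT UV and 5.47 in KO UV. Of all 577 miRNAs on the array, 27 (4.68%) had every KO UV array below every WT UV array. The study singled out miR-21-3p from a comparison that included chronically irradiated skin of both genotypes, so its permutation p is no separate support. MiR-103, of which the gene Mir103-1 lies within Pank3, gave 825.7 to 893.7 and 871.7 to 1012 units, a difference of 0.16 with an interval from 0.05 to 0.27 (limma adjusted p = 0.223).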

How the data were processed

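Dorsal skin RNA was hybridized to single-colour Agilent mouse miRNA arrays, and groups and replicate numbers were taken from the sample titles. The deposited scanner files hold intensity values, which per the file headers were background-subtracted by spot and summed per miRNA by Agilent Feature Extraction 9.5.3.1, without normalization between arrays. A series table deposited beside them, in log2 units and normalized by the authors, served as an alternative. Each miRNA's coordinates are those of its probes in the files (mm9). No spot was saturated. The number of arrays limits the precision.

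Total signals of all 16 arrays were quantile normalized, set to a floor of 19.4 units (the 5th percentile of detected signals, as a median of the arrays) and log2 transformed. The floor understates differences of dim miRNAs. Means of the 4 groups were fitted with lmFit and eBayes (limma 3.58.1, R 4.3.3; 12 residual and 0.802 prior degrees of freedom) for the 228 miRNAs detected on all 4 arrays of any group, and calls were made at an adjusted p under 0.05 (Benjamini-Hochberg). The fit was tested on simulated data. Where no array of a group detected a miRNA, the fold is a bound: the mean of the bright group against the mean of, per dim array, either the lowest signal it detected or that of the miRNA, whichever was higher. Single values were compared by exact permutation.

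Named were all called miRNAs, the 8 largest differences each way among miRNAs detected on all 8 arrays, miR-21, miR-103 and the ends of each list. Members and lists were chosen with earlier results of these data known. The cluster list was first written as chromosome 12 from 110 Mb on, with 78 miRNAs, 10 of them among the 187, and was narrowed to miR-770-5p through miR-410. Of 34 mature names looked up in RefSeq, 32 matched. Alternatives changed the normalization, signal, filter, floor, block, arrays, moderation, slide row, threshold and test, and left out each array. The left-out non-irradiated arrays and the list medians by scaling were chosen after seeing the data.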

Additional observations from a re-analysis of the deposited data

Results flagged for a closer look

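The genotype difference after UVB departed from that without it for miR-136 (-0.68), miR-379 (-0.99), miR-127 (-1.45) and miR-126-3p (-0.45), each at a limma adjusted p under 0.05 for the difference between both differences. MiR-136 was set to the floor on all non-irradiated arrays, so its value is the difference after UVB alone. Both miR-136 and miR-379 were tested only because every WT UV array detected them. Of 14 other settings, miR-136 and miR-379 were each called in 7 and miR-127 in 8. For the endothelial miR-126-3p the genotype difference was -0.12 after UVB (limma adjusted p = 0.645) and 0.33 without it (0.0552). Its call was lost with 12 of 16 single arrays left out.

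In 90 groups of 4 arrays, 9 held a value far from the others of its group by Dixon's criterion, which flags about 1 in 20 groups by chance. Of the 9 values, 5 were of KO UV replicate 4, with log2 signals of 4.31 for miR-136, 7.27 for miR-322, 13.88 for miR-21, 8.06 for miR-214 and 11.58 for let-7i. The other 3 KO UV arrays lay at the floor for miR-136. WT UV replicate 4 held 3, with 13.88 for miR-203, 5.58 for miR-150 and 13.58 for miR-1, and KO UV replicate 2 held 1, with 7.97 for miR-721. The values of miR-21, miR-203, miR-1 and let-7i are ranks turned into signal by quantile normalization.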

How the results depend on the processing

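The count of called miRNAs stayed within 4 to 7 when single irradiated arrays were left out and within 4 to 5 under most other settings. It was 3 in the authors' series table, 3 with a floor of 1 unit, 3 with the replicate number as a block, 1 with slide row as a covariate (miR-136, which that setting could not move) and 0 by the exact permutation test, whose smallest p is 0.0286 and smallest adjusted p 0.465 (14 at an unadjusted p under 0.05). It was 0 among the 167 miRNAs detected on all 16 arrays (limma, 13 at an unadjusted p under 0.05), a set without the 3 cluster miRNAs and miR-34c. With no filter it was 359 of 577, of which 344 had the same floored value on all 16 arrays. The methods' threshold, a p under 0.001 and a fold of at least 1.5, gave 4 on the raw and 1 on the adjusted p. The labels do not say whether replicate numbers pair animals, and on the irradiated slide the number equals the slide column. Correlations of deviations ran from 0.01 to 0.32 for the same number and from -0.47 to 0.18 for other numbers. The block called miR-136, miR-379 and miR-127, but not miR-34c (limma adjusted p = 0.124) or miR-322 (0.250). Each called miRNA kept its sign in every setting run, and all but miR-322 stayed called without any single irradiated array. Signs turned without normalization for miR-466f-3p (-0.0820), miR-203 (-0.0895), miR-103 (-0.14), miR-205 (-0.0027) and miR-99b (-0.0663), and for miR-34a with scaling to the 75th percentile (0.0529 over the miRNAs that all arrays detected, 0.0203 over all) and without KO UV replicate 4 (0.0369). Without normalization miR-150, miR-486, miR-206, miR-126-5p, miR-29c, miR-15b, miR-93, let-7e and miR-494, given above 0 as ends of lists, also lay below 0, as did 179 of the 187. Without normalization the median difference of all tested miRNAs was -0.25. The difference in detected miRNAs ran from -12.3 to -8.17 and that in summed signal from -64690.9 to -34721.2 with single arrays left out. The difference of miR-21-3p kept its sign in every setting run. Precision was limited by 4 arrays a group and, for the cluster, by signal near the detection limit.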
